A study of Pleurotus tuoliensis with 9 samples.

Results

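The late ergosterol synthesis enzymes of *Pleurotus tuoliensis*, an edible mushroom, are described here through 5 unigenes: gene_3555 (ERG26), gene_22349 (ERG6), gene_1612 (ERG2), gene_17310 (ERG3) and gene_4106 (ERG5). They are 5 of 13953 unigenes in the deposited count table and 5 of the 13018 that could be tested. The members were selected on their measured expression in these same libraries, so their levels, fold changes and calls are given as a description and carry no p-value. RNA-seq libraries were made from mycelial cells of 1 strain, Zhongnong No.1, which all groups share. The plates stood in the dark at 25 °C on potato dextrose agar for 9 days. From day 10 they were kept at 25 °C (CK, the control), 32 °C (MHT, the milder heat) or 36 °C (SHT, the severer heat), and all were sampled on day 13. The heat was continuous until sampling. Its length in hours should not be worked out from these day numbers, which follow the study's own count of days. Each group has 3 libraries, taken per the methods from individual plates that came from the same initial plate, so the spread between libraries is the spread between cultures of 1 strain.

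Ergosterol is the main sterol of fungal membranes, where it sets their fluidity and permeability much as cholesterol does in animals. It is made from acetyl-CoA through the mevalonate pathway, squalene and lanosterol, and the late enzymes trim and desaturate lanosterol into ergosterol. These late steps are known best from budding yeast, where ERG26 removes a carboxyl group in the loss of the C-4 methyl groups, ERG6 methylates the side chain, ERG2 moves the double bond of the ring system, ERG3 introduces a double bond into ring B, ERG5 introduces the double bond of the side chain, and ERG4 ends the route with a reduction. The members are ordered here as in yeast; in several other fungi the methyltransferase acts earlier. Antifungal drugs act on this route and on its product: azoles inhibit the demethylase ERG11, morpholines inhibit ERG2 and the reductase ERG24, and polyenes bind ergosterol itself.

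The identity of the members rests on the descriptions of their best protein matches. Of the 5 descriptions, 4 name a sterol enzyme. The description of gene_3555 is a partial sterol dehydrogenase of *Pleurotus eryngii*, that of gene_22349 a Delta(24)-sterol methyltransferase of *Pleurotus pulmonarius*, and that of gene_1612 a sterol isomerase of *Pleurotus eryngii*. The description of gene_17310 says only fatty acid hydroxylase, the protein superfamily to which sterol desaturases belong, and its name ERG3 is taken from the study. The best match of gene_4106 is an entry of the willow *Salix suchowensis*, a source shared by 607 unigenes of the table. Its wording, RNA polymerase C-22 sterol desaturase, joins unlike names, so this description is a weak basis for the name ERG5. Sequences, coordinates and gene lengths were not analysed here, so no unigene is ranked above another by level, and the ratios of neighbouring unigenes given further on are of their counts only.

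The libraries held 3925786 to 6180053 counts, and the members had 113 to 2768 counts per library. Expression is given as CPM, the count relative to the size of the library after TMM scaling, a method that sets libraries to a common level from the bulk of their unigenes. A differentially expressed gene (DEG) has an adjusted p under 0.05 by edgeR's quasi-likelihood test with Benjamini-Hochberg adjustment over all 13018 unigenes and an absolute log2 fold change above 1. In the distance between libraries over all unigenes (Euclidean, log2 CPM), MHT replicates 1 and 2 lay 43.4 apart, while MHT replicate 3 lay 75.6 and 71.3 from them and 61.2 from SHT replicate 2. SHT replicate 2 lay 65.9 and 67.6 from SHT replicates 1 and 3, which were 43.0 apart. Both libraries stand apart from the rest of their group, and values without them are given below where they matter. Of the markers of vegetative mycelium, 5 unigenes described as hydrophobins or alike, all had counts in each group, and their summed level was 495 to 621 CPM (here without TMM scaling) at 25 °C, 228 to 465 at 32 °C and 99.7 to 117 at 36 °C. A single unigene was described as a fruiting body protein, a pleurotolysin, at 1100 to 1660 CPM (likewise unscaled) at 25 °C, 572 to 719 at 32 °C and 38.9 to 217 at 36 °C. Both sums were lowest at 36 °C. The hydrophobin sum is set mostly by gene_22549, at means of 589, 323 and 86.5 CPM in CK, MHT and SHT. At a low level gene_8573 had the same order (4.46, 2.51 and 2.14 CPM). Not all shared it, since gene_6238 was lowest at 32 °C (15.2, 3.50 and 6.75 CPM) and gene_13865 at 25 °C (1.12, 1.47 and 1.43 CPM). Their part in the values of the ergosterol enzymes was not tested. The samples were bulk mycelium, in which fewer cells of a type and less RNA per cell cannot be told apart.

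All 5 members stood higher at 32 °C than at 25 °C. At 36 °C, 4 of them were still above the control, and ERG5 alone lay below it. Those 4 differed in how far above it they stood: ERG2 was nearly as high at 36 °C as at 32 °C, while ERG26, ERG6 and ERG3 lay between their control and 32 °C means.

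ERG26, the first member in pathway order, is a dehydrogenase and decarboxylase that works in a complex with the C-4 methyl oxidase ERG25 and the ketoreductase ERG27. In CK, gene_3555 was at 124, 175 and 176 CPM in replicates 1, 2 and 3. In MHT it was at 317, 296 and 467 CPM, and in SHT at 249, 261 and 275 CPM. No library of 1 group reached the range of another, with CK lowest, SHT in the middle and MHT highest, and the highest single value was that of MHT replicate 3. The means were 158 ± 30.0 CPM for CK, 360.0 ± 93.7 for MHT and 261 ± 12.9 for SHT (SD, n = 3). The log2 fold change was 1.18 (standard error 0.215) in MHT&CK, past the DEG thresholds, 0.72 (standard error 0.213) in SHT&CK and -0.46 (standard error 0.212) in SHT&MHT, neither past them. Without MHT replicate 3 the value in MHT&CK was 0.95 and no longer passed the fold threshold, and that in SHT&MHT was -0.23.

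ERG6 adds the methyl group by which fungal sterols differ from cholesterol in the side chain. CK replicates 1, 2 and 3 of gene_22349 were at 170.2, 205 and 180.4 CPM. The MHT replicates were at 319.8, 286 and 556 CPM, and the SHT replicates at 271, 296 and 317.5 CPM. All 6 heated libraries were above every control library, while MHT and SHT overlapped, since MHT replicate 2 fell inside the SHT range. The means were 185 ± 17.8 CPM for CK, 387 ± 147 for MHT and 295 ± 23.2 for SHT (SD, n = 3). The SD in MHT was the largest of any member and group in relation to its mean, and MHT replicate 3 set it. The log2 fold change was 1.06 (standard error 0.237) in MHT&CK, just past the thresholds, and 0.67 (standard error 0.236) and -0.39 (standard error 0.234) in SHT&CK and SHT&MHT, neither past them. The call in MHT&CK was lost without CK replicate 1 (1.03), without CK replicate 3 (1.05) and without MHT replicate 3 (0.71), and -0.39 in SHT&MHT became -0.04 without MHT replicate 3. MHT and SHT, the neighbours at the top of the order of levels, did not differ beyond their spread in this gene.

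ERG2 shifts a ring double bond from position C-8 and prepares the sterol for desaturation. Of the members, gene_1612 had the widest distance between control and heated libraries. It was at 33.1, 44.5 and 34.3 CPM in CK, at 133, 124 and 204 CPM in MHT and at 136, 151 and 148 CPM in SHT. The lowest heated library was above the highest control library by a wide margin, and the SHT values lay inside the MHT range. The means were 37.3 ± 6.26 CPM for CK, 154 ± 43.9 for MHT and 145 ± 7.93 for SHT (SD, n = 3), so that the mean in MHT was 4.12 times and the mean in SHT 3.89 times that of CK. The log2 fold change was 2.04 (standard error 0.219) in MHT&CK and 1.96 (standard error 0.219) in SHT&CK, both past the DEG thresholds, and with any 1 library left out they ranged from 1.78 to 2.19 and from 1.87 to 2.10. In SHT&MHT it was -0.08 (standard error 0.207), and 0.18 without MHT replicate 3, so the order of the 2 heat treatments was not resolved in this gene.

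ERG3 introduces the ring double bond that, together with that left by ERG2, gives ergosterol its conjugated system. The CK libraries of gene_17310 were at 129, 165 and 141 CPM. Those of MHT were at 352, 316 and 301 CPM, and those of SHT at 232, 194 and 258 CPM. The 3 groups did not overlap, and MHT replicate 3, which was the highest MHT library for the 3 enzymes before it in the pathway, was here the lowest. The means were 145 ± 18.1 CPM for CK, 323 ± 26.3 for MHT and 228 ± 32.2 for SHT (SD, n = 3). The log2 fold change was 1.16 (standard error 0.177) in MHT&CK, past the thresholds, 0.65 (standard error 0.176) in SHT&CK and -0.50 (standard error 0.175) in SHT&MHT, neither past them. With any 1 library left out the value in MHT&CK ranged from 1.09 to 1.26.

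ERG5 is a cytochrome P450 that introduces the C-22 double bond of the side chain, a feature of ergosterol that cholesterol lacks. It was the member with another order of groups. The CK libraries of gene_4106 were at 61.8, 62.1 and 71.2 CPM, those of MHT at 111, 106 and 78.4 CPM and those of SHT at 45.5, 44.3 and 38.5 CPM. MHT was highest, CK in the middle and SHT lowest, with no overlap between any pair of groups, although MHT replicate 3 came close to the highest control library. The means were 65.0 ± 5.34 CPM for CK, 98.1 ± 17.3 for MHT and 42.8 ± 3.76 for SHT (SD, n = 3). The log2 fold change was 0.59 (standard error 0.179) in MHT&CK and -0.60 (standard error 0.181) in SHT&CK, neither past the fold threshold, and -1.20 (standard error 0.181) in SHT&MHT, which was past both thresholds. With any 1 library left out it ranged from -1.34 to -1.10 in SHT&MHT and stayed called.

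**Figure D1:**
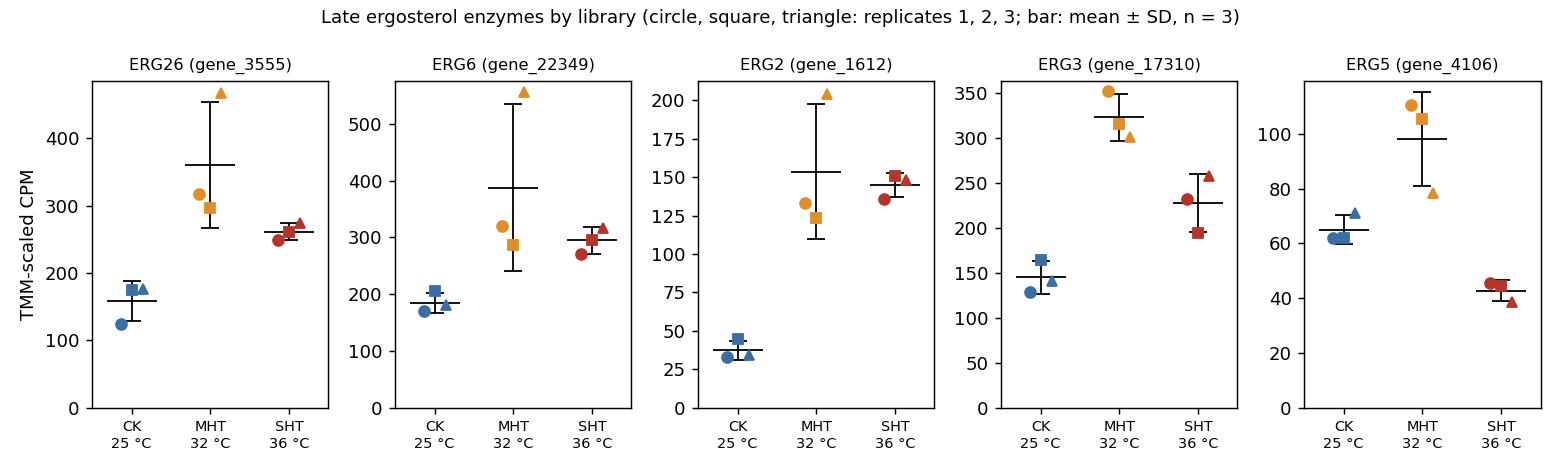
TMM-scaled CPM of the 5 late ergosterol enzymes in each library, 1 panel per unigene in pathway order, with the temperature of the group on the x axis, circle, square and triangle for replicates 1, 2 and 3, and bars for the mean ± SD of 3 libraries. Each y axis starts at 0 and has its own scale. ERG26, ERG6, ERG2 and ERG3 are lowest at 25 °C, while ERG5 falls from a mean of 98.1 CPM at 32 °C to 42.8 CPM at 36 °C, below its control mean of 65.0 CPM.

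Counted over the members, 4 were called higher and 0 lower in MHT&CK, where 3.85% of all unigenes tested were called higher and 4.32% lower. In SHT&CK 1 member, ERG2, was called higher and 0 lower, against 10.8% of all unigenes called higher and 10.9% lower. In SHT&MHT 0 members were called higher and 1, ERG5, lower, against 2.79% and 2.87% of all unigenes. These counts follow in part from how the members were chosen, and nothing is read from them. The median log2 fold change of the 5 members was 1.16 in MHT&CK, 0.67 in SHT&CK and -0.46 in SHT&MHT, and the median over all unigenes was 0.00, 0.01 and 0.00. MHT&CK and SHT&CK share their control libraries, so a high or low control library moves both in the same direction.

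Members also differed in how far their libraries spread within a group. In SHT the coefficient of variation was 4.94% for ERG26, 7.87% for ERG6, 5.47% for ERG2, 14.1% for ERG3 and 8.79% for ERG5. In MHT it was 26.0%, 37.9%, 28.6%, 8.15% and 17.6% in the same order. For ERG3 the MHT library farthest from the other MHT libraries was replicate 1, at 0.19 on the log2 scale. For the other members it was MHT replicate 3, and not in the same direction for all of them. On the log2 scale it lay 0.61 above the mean of the other 2 MHT libraries for ERG26, 0.88 above it for ERG6 and 0.67 above it for ERG2. For ERG3 it differed by -0.15 and for ERG5 by -0.46. SHT replicate 2, the other library that stands apart, differed from its group by 0.00 for ERG26, 0.01 for ERG6, 0.09 for ERG2, -0.33 for ERG3 and 0.08 for ERG5. The first 3 enzymes of the order thus had their highest MHT value in the library that lay nearest to SHT replicate 2, and the last 2 their lowest. With MHT replicate 3 and SHT replicate 2 both left out, a choice made after the values were seen, 2 members were called in MHT&CK, ERG2 and ERG3, in place of 4.

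**Figure D2:**
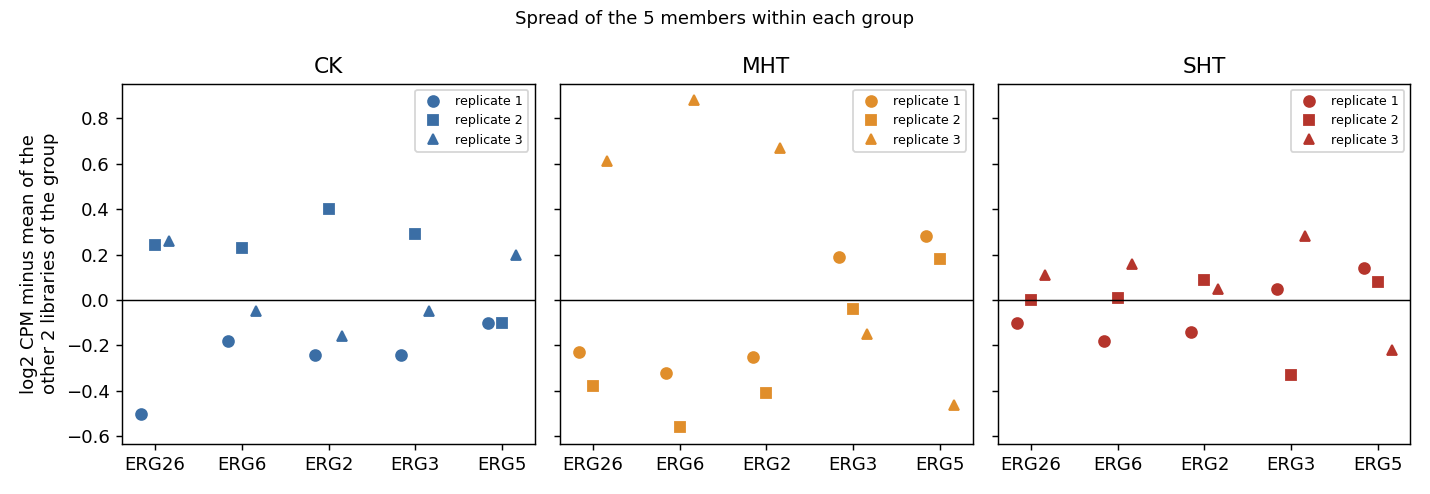
Difference of each library from the mean of the other 2 libraries of its group (log2 CPM, y axis) for the 5 members in pathway order (x axis), with 1 panel per group and circle, square and triangle for replicates 1, 2 and 3. In MHT, replicate 3 is at 0.61, 0.88 and 0.67 for ERG26, ERG6 and ERG2 but at -0.15 and -0.46 for ERG3 and ERG5, and the SHT points of these 3 enzymes and of ERG5, though not of ERG3, lie closer to 0 than the farthest MHT point.

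Across the 9 libraries, log2 CPM of ERG26 and ERG6 had a Pearson correlation of 0.963. Among ERG26, ERG6, ERG2 and ERG3 the lowest correlation of a pair was 0.807, between ERG6 and ERG3. ERG5 had correlations of 0.24 with ERG26, 0.123 with ERG6, -0.044 with ERG2 and 0.395 with ERG3. These values describe the 9 libraries only, which share their groups, and they mix the differences between groups with those between replicates. They place 4 of the members near each other and ERG5 apart from them.

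The unigenes whose pattern was most like that of a member were sought among 2535 unigenes with an informative description and a mean of at least 10 CPM, by the Pearson correlation of log2 CPM over the 9 libraries. Closest to ERG26 was gene_18030, described as a lanosterol alpha-demethylase, with 0.974, followed by gene_15015, a DEAD-domain protein, with 0.971 and gene_25015, a Swi3-domain protein, with 0.970. Closest to ERG6 were gene_518, an RNA-binding domain protein, with 0.979, then ERG26 itself with 0.963 and gene_4416, an NADH-cytochrome b5 reductase, with 0.960. In yeast, cytochrome b5 passes electrons to sterol oxidases and desaturases. Closest to ERG2 were gene_4707, the isopentenyl-diphosphate isomerase IDI1 of the mevalonate pathway, with 0.994, gene_15827, a protein kinase domain protein, with 0.990 and gene_9153, a lumenal Hsp70, with 0.989. For ERG3 they were gene_7721, a WD40 repeat protein, with 0.973, gene_7498, a mitochondrial amino-acid acetyltransferase, with 0.968 and gene_7416, a glycosyltransferase, with 0.954. For ERG5 they were gene_365, of the endonuclease, exonuclease and phosphatase family, with 0.976, gene_4107, a cytochrome P450, with 0.961 and gene_798, a family 2 glycosyltransferase, also with 0.961. The 9 points of each correlation share their groups, so these are unigenes with a like profile and nothing more.

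Of the other late enzymes, ERG11, ERG25 and ERG4 had matched unigenes. Of 11 late enzymes sought by words in the descriptions, 8 had a match, the members included, and none was found by these words for ERG24, ERG27 and ERG28. In all, 6 unigenes of the late steps other than the members were tested, and 0 passed the DEG thresholds of edgeR's test in any comparison. By adjusted p under 0.05 in that test they numbered 2 in MHT&CK and 0 in each of the other comparisons. By unadjusted p under 0.05 they numbered 4 in MHT&CK, 1 in SHT&CK and 2 in SHT&MHT. The share of all unigenes with an unadjusted p under 0.05 is not given here, so nothing is read from such counts. DESeq2 called none of the 18 matched sterol unigenes outside the members in SHT&MHT either, and 2 each in MHT&CK and SHT&CK, none of which is a late enzyme.

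ERG11 is the P450 that removes the C-14 methyl group of lanosterol, ahead of all the members. It was matched by gene_18029, at 80.9, 96.0 and 103 CPM at 25 °C, 157, 137 and 184 at 32 °C and 109, 115 and 126 at 36 °C. Its groups did not overlap and stood in the same order as those of ERG26 and ERG3. The means were 93.3 ± 11.3, 159 ± 23.6 and 117 ± 8.73 CPM (SD, n = 3), and MHT&CK gave a log2 difference of 0.77 ± 0.174 (standard error), under the fold threshold, with an adjusted p of 0.012 in edgeR's quasi-likelihood test with Benjamini-Hochberg adjustment. Its neighbour in ID number, gene_18030, which the word search missed and which was added after its values were seen, had means of 132 ± 14.4, 259 ± 52.7 and 197 ± 12.9 CPM in the 3 groups and log2 fold changes of 0.97, 0.57 and -0.39 in the 3 comparisons, and it passed the thresholds in MHT&CK when CK replicate 3 (1.06), MHT replicate 1 (1.02) or MHT replicate 2 (1.07) was left out. As it may be a piece of the same gene, the separate values of both are uncertain.

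ERG25 is the oxidase that hands its product to ERG26. It was matched by 4 unigenes, which had no common direction. Of these, gene_11634 had means of 242 ± 32.0, 351 ± 89.2 and 260.2 ± 56.5 CPM from CK to SHT (SD, n = 3). Its value of 0.54 on the log2 scale in MHT&CK had an adjusted p of 0.124 in edgeR's quasi-likelihood test. The other 3, gene_8435, gene_18816 and gene_22997, had log2 fold changes of -0.31, -0.57 and -0.30 in MHT&CK and -0.05, -0.60 and -0.30 in SHT&CK, and none passed the test. The names of such oxidases rest on protein families with several members, so which of the 4 belongs to the route was not determined.

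ERG4, the reductase that follows ERG5 and completes ergosterol, was not a member. The study names ERG4 among its ergosterol DEGs from these libraries, without printing an ID, so ERG4 is no independent case. Its unigene gene_26577 was at 64.2, 91.3 and 81.7 CPM in CK, at 141, 135 and 189 in MHT and at 94.6, 108 and 98.3 in SHT. Every MHT and SHT library was above every control library, and every MHT library was above every SHT library. The means were 79.0 ± 13.8, 155 ± 29.8 and 100.4 ± 7.0 CPM (SD, n = 3). In MHT&CK the log2 fold change was 0.97, with an adjusted p of 0.00601 in edgeR's quasi-likelihood test with Benjamini-Hochberg adjustment, just under the fold threshold that ERG6, at 1.06, just passed. It passed when CK replicate 2 (1.09), MHT replicate 1 (1.03) or MHT replicate 2 (1.05) was left out. In SHT&CK and SHT&MHT the values were 0.34 and -0.63, with adjusted p of 0.168 and 0.0547 in edgeR's quasi-likelihood test. ERG4 thus had the order CK, SHT, MHT that ERG26 and ERG3 had, and not that of ERG5 before it in the pathway.

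**Figure D3:**
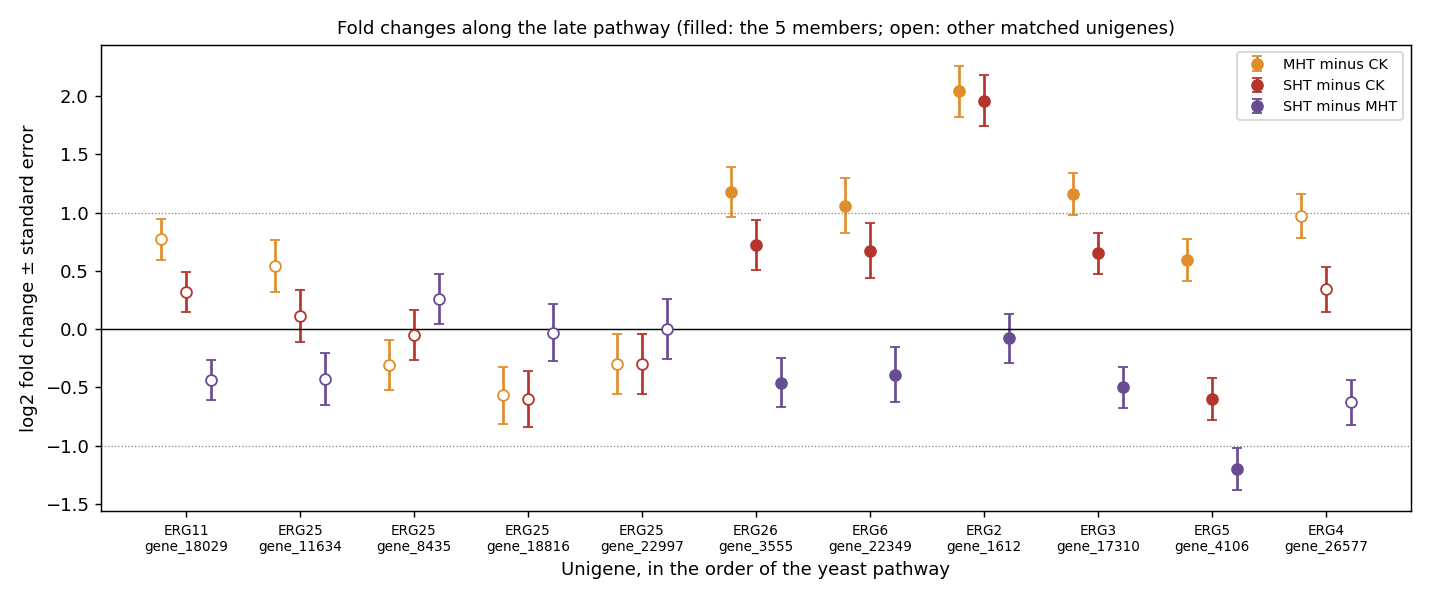
Log2 fold change ± standard error (y axis) of each late enzyme unigene in pathway order (x axis) for MHT minus CK, SHT minus CK and SHT minus MHT, with filled points for the 5 members, open points for the other matched unigenes and dotted lines at the fold threshold of 1 in both directions. ERG2 stands highest, at 2.04 and 1.96 against CK, and ERG5 is the member below 0 in SHT minus CK, at -0.60.

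Over the whole route, 13 of 22 enzymes sought from the mevalonate pathway to ergosterol had a matched unigene. Beyond the members, 11 unigenes of these enzymes were tested, of which 1 was called higher in MHT&CK, 1 in SHT&CK and 0 in SHT&MHT. By adjusted p under 0.05 in edgeR's test they numbered 4, 2 and 1 in these comparisons. In SHT&MHT 4 had an unadjusted p under 0.05. The 4 unigenes that the study names as HMG-CoA reductase, the rate-limiting enzyme of the mevalonate pathway, are not among the 11, since the deposited descriptions say only hypothetical protein. The study chose them on these libraries, so their values are a description. Of these, gene_8173 differed from CK by 1.41 in MHT and 1.59 in SHT on the log2 scale and gene_8174 by 1.33 in both, all past the DEG thresholds, and the gene_8174 call in MHT&CK was lost without CK replicate 1 (1.27) or CK replicate 3 (1.29). The values of gene_8175 were 1.27 and 1.21 and those of gene_8176 were 1.44 and 1.22, none past the thresholds in edgeR's test, while DESeq2 called both unigenes in both comparisons. Without SHT replicate 2, edgeR's test also called both unigenes in both comparisons, at 1.58 for gene_8175 and 1.63 for gene_8176 in SHT&CK. The called one of the 11 is gene_4707 (IDI1), which interconverts the building blocks of squalene. It rose in both treatments, from a mean of 89.7 ± 13.9 CPM to 357 ± 134 at 32 °C and 356 ± 51.8 at 36 °C (SD, n = 3). By edgeR's quasi-likelihood test with Benjamini-Hochberg adjustment both changes were 1.99 on the log2 scale, with an adjusted p of 6.44e-04 for MHT&CK and 2.02e-04 for SHT&CK. Its means were in the same relation to one another as those of ERG2. IDI1 was chosen by the study on these libraries as well, so it is no independent case.

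Squalene synthase ERG9, gene_26116, which commits the route to sterols and is singled out after its values were seen, had means of 61.7 ± 4.26, 108 ± 25.7 and 78.2 ± 4.69 CPM from CK to SHT (SD, n = 3). Its log2 fold change of 0.80 in MHT&CK had an adjusted p of 0.0141 in edgeR's quasi-likelihood test and was under the fold threshold. Squalene epoxidase ERG1, the enzyme after it, was matched by gene_2600 and gene_2601, and these had another order. Means of gene_2601, also singled out after its values were seen, were 14.5 ± 1.30 CPM at 25 °C, 13.6 ± 0.351 at 32 °C and 22.5 ± 3.46 at 36 °C (SD, n = 3). Its log2 fold changes of -0.09 in MHT&CK, 0.63 in SHT&CK and 0.73 in SHT&MHT had adjusted p of 0.798, 0.0236 and 0.0376 in edgeR's quasi-likelihood test, all under the fold threshold, and it was the only one of the 11 with an adjusted p under 0.05 in SHT&MHT. For gene_2600 they were -0.04, 0.19 and 0.23, with adjusted p of 0.619 or more in that test. The 11 unigenes had a median log2 fold change of 0.30 in MHT&CK, 0.23 in SHT&CK and -0.03 in SHT&MHT, and with the 4 HMG-CoA reductase unigenes added, a choice made after their values were seen, the 15 had 0.77, 0.34 and -0.03. Those 4 have consecutive ID numbers, and whether they are pieces of 1 gene was not determined, so they may weigh too much in the second set of medians. The same holds for gene_2600 and gene_2601, which count separately among the 11.

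Outside the route itself, 4 unigenes of the electron donors of sterol enzymes and 3 of sterol handling were tested. None of the donors, cytochrome P450 reductase and cytochrome b5 reductase, passed in any comparison, and 0 had an adjusted p under 0.05 in edgeR's test. By unadjusted p under 0.05 they numbered 2 in MHT&CK and 0 in each of the other comparisons. The unigenes of each donor are neighbours in ID number, and whether they are pieces of 1 gene was not determined. Of the handling group, gene_4364, an oxysterol-binding protein of a family that moves lipids between membranes, fell in both treatments, and the other 2 did not pass. Its mean was 38.7 ± 8.59 CPM at 25 °C, 8.83 ± 1.43 at 32 °C and 8.77 ± 4.41 at 36 °C (SD, n = 3). The changes were -2.13 ± 0.315 for MHT&CK and -2.14 ± 0.314 for SHT&CK (log2 scale, ± standard error), with adjusted p of 0.0014 and 3.93e-04 in edgeR's quasi-likelihood test with Benjamini-Hochberg adjustment. Listed here as an NPC-type sterol transporter, gene_942 is described only as a patched family-domain protein. Its best match and that of gene_4364 are entries of *Salix suchowensis*, so both names are weakly based. Singled out after its values were seen, gene_942 was higher in both treatments but under the fold threshold, at 0.71 in MHT&CK and 0.58 in SHT&CK on the log2 scale, with adjusted p of 0.00784 and 0.00885 in edgeR's quasi-likelihood test. The third, gene_4122, a sterol glucosyltransferase, had -0.33 and -0.59, with adjusted p of 0.493 and 0.141 in that test. Together the 18 tested unigenes other than the members had 1 call higher and 1 lower in MHT&CK and the same numbers in SHT&CK.

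The count of gene_4106 has a limit of its own. The unigene next to it in ID number, gene_4107, is described as a cytochrome P450, the enzyme class of ERG5, and it was looked at after its values were seen. It was at 186, 225 and 216 CPM at 25 °C, 385, 339 and 305 at 32 °C and 151, 174 and 147 at 36 °C. In every library the count of gene_4106 was 0.255 to 0.332 times that of gene_4107, and both had the order MHT, CK, SHT. The means of gene_4107 were 209 ± 20.4, 343 ± 39.8 and 157 ± 14.4 CPM (SD, n = 3), and the log2 fold change was 0.71 in MHT&CK, -0.41 in SHT&CK and -1.13 in SHT&MHT. The means of gene_4107 in MHT and SHT were 1.64 and 0.752 times that of CK, and those of gene_4106 were 1.51 and 0.658 times. The study writes of ERG5 unigenes in the plural and prints no IDs for them. The increase that the study prints for ERG5 in MHT lies nearer to the ratio of gene_4107 than to that of gene_4106. Its printed reduction in SHT, as worded, is larger than that of either unigene. Whether gene_4107 is among the study's ERG5 unigenes was not determined. Whether gene_4106 and gene_4107 are pieces of 1 gene was not determined either. With their counts summed, the log2 fold change of ERG5 in SHT&CK was -0.45 in place of -0.60, and it stayed called lower in SHT&MHT. The next unigene, gene_4108, a hypothetical protein, was at 100.4 ± 16.9, 165 ± 7.41 and 85.7 ± 13.0 CPM, and gene_4105, also hypothetical, had another order, at 2.13 ± 1.28, 10.4 ± 2.81 and 18.3 ± 2.60 CPM in CK, MHT and SHT (SD, n = 3). The order MHT, CK, SHT of the means was thus found in gene_4106, gene_4107 and gene_4108 and not in gene_4105. In gene_4108 the CK and SHT libraries overlapped, at a log2 fold change of -0.23 (standard error 0.18) in SHT&CK, so the order of these groups was not resolved there. Whether the counting used strand is not given in the sources used here, so reads of overlapping or antisense neighbours cannot be told apart.

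**Figure D4:**
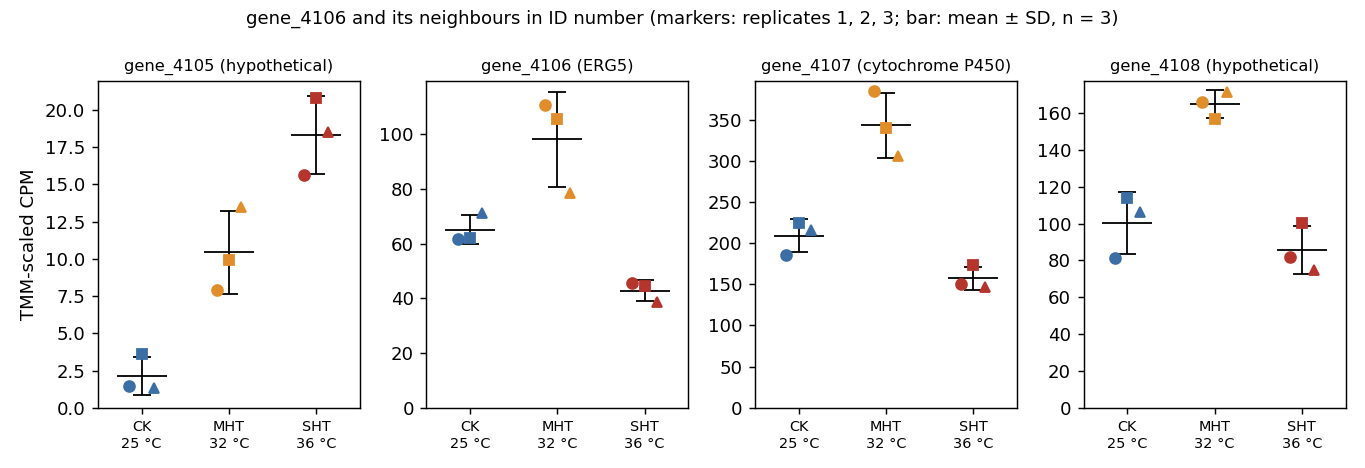
TMM-scaled CPM by library (y axis, each with its own scale from 0) of gene_4106 and the unigenes beside it in ID number, for CK at 25 °C, MHT at 32 °C and SHT at 36 °C, with markers for replicates 1, 2 and 3 and bars for the mean ± SD of 3 libraries. The means of gene_4106, gene_4107 and gene_4108 are highest in MHT and lowest in SHT, and that of gene_4105 is highest in SHT, at 18.3 CPM.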

How the data were processed

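RNA-seq libraries of *P. tuoliensis* mycelia in 3 groups of 3 were analysed from the counts that the authors deposited, whole numbers per unigene without normalization. Per the methods, the authors filtered reads with fastp, removed rRNA with Bowtie2, mapped the rest with HISAT2 to a *P. tuoliensis* genome, assembled them with StringTie and annotated unigenes by BLASTX; neither tool versions nor strand use were found in the sources used here. No library pair had identical counts. Testing covered the 13018 unigenes without a 0 in any library and left out 935. Counts were scaled by TMM (factors 0.8702 to 1.109) and fitted with edgeR 4.0.16 in R 4.3.3, quasi-likelihood with robust dispersions, in a single model of group fitted to the 9 libraries, and Benjamini-Hochberg adjustment ran over every unigene tested. The log2 CPM values have a prior count of 2. The test was also run on simulated counts with known changes.

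The members, the word lists of sterol enzymes and the tests were chosen with earlier results of these data known, so no list is independent evidence. The unigenes named are the 5 members, every tested unigene of the late list, called unigenes of the other lists (at most 4 per list), and the 3 most like each member among described unigenes with a mean of at least 10 CPM; others are said to be chosen after their values were seen. The alternatives were DESeq2 1.42.0, RLE and upper-quartile scaling, 2 other low-count filters, the compared groups only, a block for the replicate number, leaving out 1 library at a time and neighbouring unigenes of 1 description summed. After the values were seen, 2 more were added: MHT replicate 3 and SHT replicate 2 both left out, and the neighbours of gene_4106 and gene_18029 summed. The depth was 3925786 to 6180053 counts per library.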

Additional observations from a re-analysis of the deposited data

How the results depend on the processing

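DESeq2, the other scalings, filters, sample choices and summed neighbours left the number of members called at 4 in MHT&CK and at 1 in each other comparison. With each library left out in turn 2 to 4 members were called in MHT&CK, and 2 with MHT replicate 3 and SHT replicate 2 both out. The DEGs over all unigenes in SHT&MHT numbered 736, ranged from 278 to 1428 with a library left out and were 1548 without that pair. The libraries were not treated as paired by replicate number. Of 9 same-numbered pairs, 1 had deviations with a correlation over 0.1, MHT and SHT replicate 1 at 0.442. Deviations from means of 3 libraries are a weak check, and whether libraries of 1 number shared a batch was not tested. With the replicate block 4, 1 and 1 members were called, and DEGs numbered 990, 2767 and 641 in place of 1063, 2821 and 736. Of 285 alternative values of the members' log2 fold changes, 284 moved by less than the spread between replicates. The exception was gene_4106 in SHT&CK, at -0.45 with gene_4107 added. This is a loose measure, since leaving out 1 library can hardly move a group mean by more than that spread. Lost calls and uncalled changes of sign are not counted by it. For ERG2 in SHT&MHT, -0.08 became 0.18 without MHT replicate 3, and ERG26 and ERG6 lost calls in MHT&CK. Among 1074 values of the 19 other unigenes given with log2 fold changes, 29 were counted as a change of sign, all uncalled. For gene_4105, gene_4107, gene_4108, gene_18030 and gene_8173 to gene_8176, only sign changes of called values were counted. Any uncalled change of sign in these unigenes is therefore missing from that number and from the values below. The correlations were not recomputed. With a library left out, gene_8435 in SHT&CK ranged from -0.21 to 0.08 and gene_11634 from -0.09 to 0.20, and without the pair they were at 0.08 and -0.09. In SHT&MHT, gene_18816 ranged from -0.25 to 0.09, gene_22997 from -0.24 to 0.22, gene_4707 from -0.20 to 0.34 and gene_4364 from -0.49 to 0.20. In the same comparison gene_22997 was at 0.00 without a filter, -0.02 in the compared groups only, -0.01 with the block and -0.16 without the pair. There gene_4707 was at 0.01 with upper-quartile scaling, 0.02 with the block and 0.24 without the pair, and gene_4364 at 0.01 with upper-quartile scaling. The cause of these changes was not tested.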
